A study of Homo sapiens with 6 samples.

Results

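Chromatin accessibility was followed at 8 genes that recur as drivers or tumour suppressors in melanoma: BRAF, NRAS, NF1, CCND1, CDK4, CDKN2A, CDKN2B and TERT. Accessible regions (peaks) were assigned to a gene when their centre lay in its GENCODE release 44 body, or when they lay between protein-coding genes and its start was the nearest protein-coding start site. This gave 71 member peaks of 152800 in the whole table, 29 in gene bodies and 42 between genes, and 16 of them had their centre within 3 kb of the start of a protein-coding transcript of their gene and are called promoter peaks here. A375 cells, a human melanoma line long in culture, carry an activating BRAF mutation. Bulk ATAC-seq, in which the Tn5 transposase cuts and tags open DNA, was carried out on 3 libraries of A375 cells with an empty vector and on 3 libraries of A375 cells with the genotype HMGB2OE, which overexpress the chromatin-bending protein HMGB2. Both were stable lines made by lentiviral transduction, and the libraries are described by the study as technical replicates of an experiment done once. The p-values below therefore measure the spread between these libraries alone, and any other difference between the 2 lines cannot be told apart from that of HMGB2.

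The products of the 8 genes act in 3 connected systems. NRAS, a small GTPase, activates the kinase BRAF and through it MEK and ERK, and neurofibromin, the product of NF1, switches RAS off. ERK signalling raises cyclin D1 (CCND1), which with CDK4 phosphorylates the retinoblastoma protein and opens the way to DNA replication. CDKN2A and CDKN2B encode the CDK4 and CDK6 inhibitors p16 and p15, with the unrelated protein ARF made from another start of CDKN2A, and TERT encodes the catalytic subunit of telomerase. An open promoter is a condition for transcription but not a measure of it, and no RNA was used here.

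The libraries held between 26910189 and 45645294 counts in peaks, and levels are given as normalized counts, which are counts scaled to a common library size by TMM. In the peak at the HMGB2 gene starting at 173332680 on chromosome 4, the empty vector libraries held 50.0, 25.0 and 21.1 normalized counts and the HMGB2OE libraries 102, 101 and 92.3 (log2 fold change 1.67, adjusted p = 0.000113 by edgeR's quasi-likelihood test). The peak starting at 173331939 was higher too (log2 fold change 1.16, adjusted p = 0.0082, same test). Whether reads of the introduced lentiviral HMGB2 sequence add to these counts was not tested, so they need not show a more open HMGB2 gene. Of 8 melanocyte lineage genes, 4 had a promoter peak, at percentiles 58.5 (S100B), 58.8 (SOX10), 80.0 (MITF) and 99.8 (PMEL) of all genes with one. A peak within 3 kb of a start can also belong to another gene, which was not examined for these 4. MLANA, TYR, TYRP1 and DCT had no promoter peak. The study called peaks against a melanocyte dataset as control, so their absence from the peaks does not show closed chromatin. The promoter peaks found for 3 of 4 keratinocyte genes, 2 of 4 blood genes and 1 of 2 endothelial genes lay at percentiles 10.9 to 42.4, 8.25 to 20.5 and 1.35.

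In empty vector cells, 7 of the 8 genes had at least 1 promoter peak, and their levels differed widely. CDK4 had the strongest, with 1476 ± 27.6 normalized counts (SD, n = 3), and TERT the weakest, with 120 ± 11.2. Between them lay CCND1 (995 ± 24.6), NF1 (779 ± 60.6), NRAS (722 ± 33.8), BRAF (626 ± 38.8) and CDKN2A (324 ± 17.3). NF1 and NRAS were the only neighbours in this order whose 3 libraries overlapped. Among the strongest promoter peaks of all protein-coding genes that have one, CDK4 stood at percentile 84.4, CCND1 at 66.2, NF1 at 54.0, NRAS at 50.3, BRAF at 44.2, CDKN2A at 25.1 and TERT at 11.2. All peaks named here are 502 bases wide, so levels compare peaks of 1 width, but copy number of the genes was not corrected for.

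**Figure D1:**
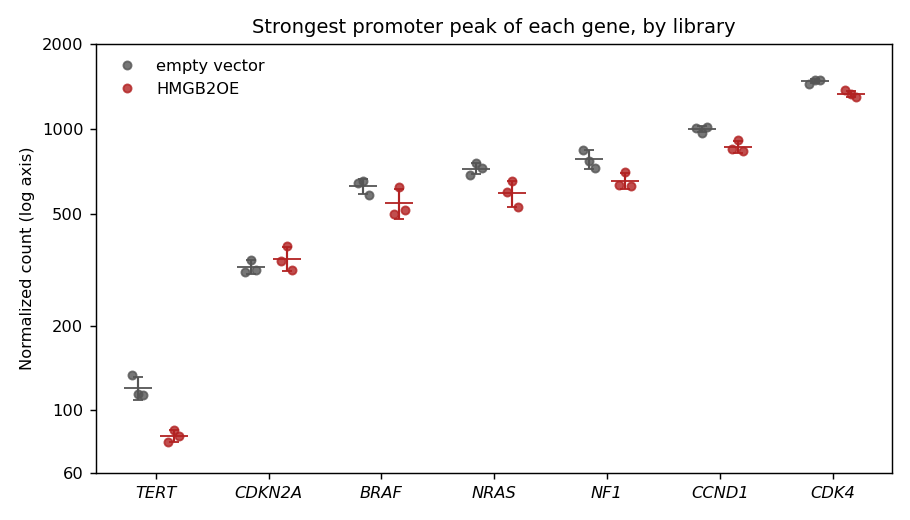
Normalized counts (log axis) of the strongest promoter peak of 7 genes in each of 3 empty vector libraries (grey) and 3 HMGB2OE libraries (red), with bars for the mean and SD. TERT is lowest and CDK4 highest. In 5 of the 7 all HMGB2OE libraries lie below all empty vector libraries, beside 15.9% of all promoter peaks, strong or weak.

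Among the 71 member peaks, all of which passed the filter on low counts, 1 was called lower in HMGB2OE cells and 0 were called higher (at least 1.5-fold with an adjusted p under 0.05, edgeR). Over all 150117 peaks tested, 1.87% were called higher and 1.44% lower, and the 1 member peak is 1.41% of the members. DESeq2 gave the same counts, and at an unadjusted p under 0.05 edgeR found 2 members higher (2.82%) and 17 lower (23.9%), beside 10.7% and 10.2% of all peaks. With no fold limit, 1 member was higher and 4 were lower, beside 3.44% and 3.03% of all peaks. All 3 HMGB2OE libraries lay below all 3 empty vector libraries in 17 members (23.9%), where this holds for 12.5% of all peaks, and above them in 2 members (2.82%), beside 12.6% of all peaks. The direction was negative in 48 of the 71 (67.6%), with a median log2 fold change of -0.11, against 50.8% of all peaks and a median of -0.0049. Members were stronger peaks, with a median of 182 normalized counts in empty vector cells beside 102 for all peaks. The part of level in these shares was not tested. Peaks of 1 gene are neighbours and not replicates, so these shares describe the members only.

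Promoter peaks, where transcription starts, were also counted apart. Of 16 member promoter peaks, 12 were below 0 on the log2 scale (75%), beside 61.4% of all promoter peaks, and in 7 (43.8%) the HMGB2OE libraries lay below every empty vector library, beside 15.9% of all promoter peaks. In 1 (6.25%) they lay above every empty vector library, beside 7.59% of all promoter peaks. Of the strongest promoter peak of each gene, 6 of 7 were below 0, with CDKN2A as the exception. The share among the strongest promoter peaks of all genes was not computed. Member promoter peaks had a median of 379 normalized counts in empty vector cells, beside 229 for all promoter peaks. With a loess trend on mean count removed, the falls were smaller at CDK4 (-0.091), CCND1 (-0.15), NRAS (-0.24), NF1 (-0.21) and BRAF (-0.16). The fall at TERT was larger (-0.60). Outside promoters, 36 of 55 member peaks (65.5%) were below 0, beside 48.1% of all such peaks.

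**Figure D2:**
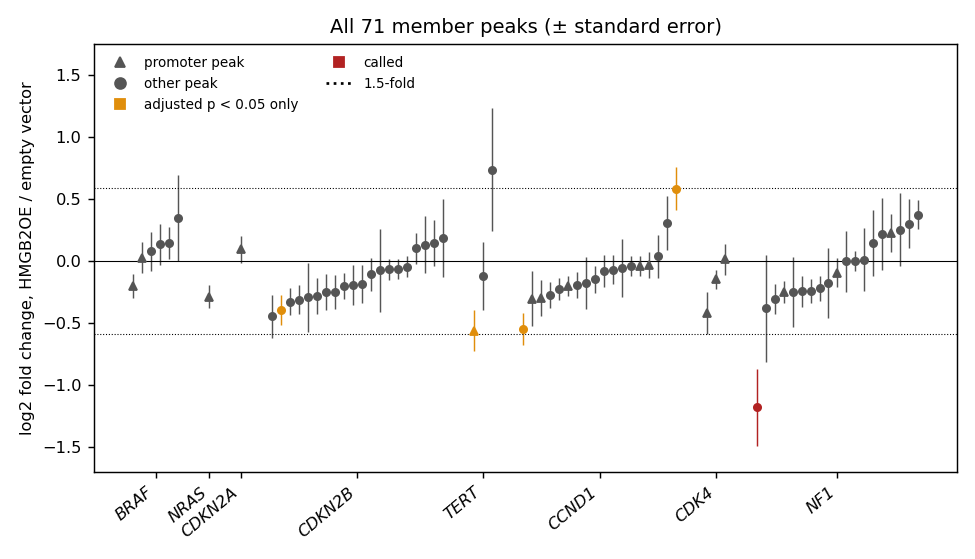
Log2 fold change (HMGB2OE over empty vector) of all 71 member peaks with standard error bars, grouped by gene and sorted within each, with triangles for promoter peaks and dotted lines at 1.5-fold. A single NF1 peak passes the call rule (red), 4 further peaks pass only the adjusted p (orange), and most others lie within 0.5 of 0.

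The 5 peaks with an adjusted p under 0.05, 1 each at TERT, NF1 and CDKN2B and 2 at CCND1, are given first with the reference sequence where it helps to see what changed. In printed sequences, capitals mark any of 5 short words searched on both strands: TGANTCA (an AP-1 site), CACGTG and CATGTG (E-boxes, bound by MITF among others), CCGGAAG (ETS) and GGGCGG (SP1). A match describes letters, not a bound factor.

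The called peak lies inside NF1, the RAS-inactivating GTPase-activating protein, at 31248957 to 31249458 on chromosome 17 (hg38), and covers the whole of a 136-base coding exon (31248984 to 31249119). The 3 empty vector libraries held 44.5, 44.7 and 50.3 normalized counts and the 3 HMGB2OE libraries 17.9, 24.2 and 19.1. Every HMGB2OE library was below every empty vector library. The peak fell by 1.18 on the log2 scale (SE 0.311, adjusted p = 0.0193, edgeR). It is a weak peak, at percentile 16.9 of all tested peaks in empty vector cells, and it had no other alignment of 200 bases at 95% identity in hg38. The call was lost when any of 4 libraries was left out, with adjusted p = 0.0531 without empty vector replicate 2, 0.0658 without empty vector replicate 3, 0.0884 without HMGB2OE replicate 1 and 0.0587 without HMGB2OE replicate 3. The log2 fold change stayed between -1.33 and -1.03 over 16 alternatives. The central 300 bases, chr17:31249058-31249357, plus strand, are shown because they span the end of the exon and an AP-1 word in the intron beyond it.
NF1 exon peak: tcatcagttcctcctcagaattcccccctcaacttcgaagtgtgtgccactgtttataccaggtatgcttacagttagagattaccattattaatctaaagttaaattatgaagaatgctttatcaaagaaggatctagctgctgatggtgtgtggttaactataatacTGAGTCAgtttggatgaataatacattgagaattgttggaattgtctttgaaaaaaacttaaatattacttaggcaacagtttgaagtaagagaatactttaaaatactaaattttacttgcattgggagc

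The TERT promoter peak spans 1294954 to 1295455 on chromosome 5, across the start of the telomerase gene. The empty vector libraries held 133, 114 and 114 normalized counts and the HMGB2OE libraries 77.4, 85.1 and 81.1. No HMGB2OE library reached the lowest empty vector library. The log2 fold change was -0.56 (SE 0.167, adjusted p = 0.0381, edgeR), just short of the 1.5-fold limit. The adjusted p rose past 0.05 when any 1 of the 6 libraries was left out (0.0536 to 0.135). It was also past 0.05 with GC offsets (0.058, log2 fold change -0.51), in a peak of 77.3% G and C, with library size only (0.0519) and by DESeq2 (0.088). The other TERT peaks did not pass: the intronic peak starting at 1283739 held 5.16 to 32.8 normalized counts in empty vector and 12.5 to 45.0 in HMGB2OE libraries, with overlapping groups. That intronic peak has a near copy of 501 bases at 91.4% identity elsewhere in hg38, so reads of both could have been mixed. The 250 bases before the RefSeq start (GRCh38.p14), chr5:1295069-1295318, minus strand, lie wholly in the promoter peak, are 78.8% G and C, and hold 1 CACGTG and 2 GGGCGG words.
TERT upstream: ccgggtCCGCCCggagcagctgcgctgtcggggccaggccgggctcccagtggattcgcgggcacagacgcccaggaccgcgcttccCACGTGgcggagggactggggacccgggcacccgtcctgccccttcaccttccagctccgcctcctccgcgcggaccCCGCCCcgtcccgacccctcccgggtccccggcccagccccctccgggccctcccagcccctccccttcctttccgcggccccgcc

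For NRAS, the GTPase, the only member peak was its promoter peak, at 114716495 to 114716996 on chromosome 1. The empty vector libraries held 687, 754 and 727 normalized counts and the HMGB2OE libraries 596, 651 and 527. The groups did not overlap, and the log2 fold change was -0.29 (SE 0.093), but the adjusted p was 0.0591 by edgeR and missed the threshold. It was under 0.05 in 4 of 16 alternatives. The 250 bases before the RefSeq start, chr1:114716772-114717021, minus strand, of which 225 lie in the peak, also hold 1 CACGTG and 2 GGGCGG words, like TERT. CACGTG occurs in 6.35% of 35116 RefSeq promoters of that length, and GGGCGG in 42.6%.
NRAS upstream: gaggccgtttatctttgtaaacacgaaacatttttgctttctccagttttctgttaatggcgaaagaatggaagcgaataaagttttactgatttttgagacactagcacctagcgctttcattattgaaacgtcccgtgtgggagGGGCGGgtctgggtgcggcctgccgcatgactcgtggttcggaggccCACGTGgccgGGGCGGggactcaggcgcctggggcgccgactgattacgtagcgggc

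CCND1, the cyclin that activates CDK4, had 18 member peaks, 4 in its body and 14 upstream, and 15 of 18 were below 0. The strongest member peak of all lay 143760 bp before its start, at 1823 normalized counts on average in empty vector cells, which is more than at its promoter. In the peak starting at 69587591 on chromosome 11, 53315 bp before the start, the empty vector libraries held 324, 392 and 397 normalized counts and the HMGB2OE libraries 305, 259 and 194. The highest HMGB2OE library was below the lowest empty vector library, and the log2 fold change was -0.55 (SE 0.131, adjusted p = 0.0095, edgeR). It passed the adjusted p in 15 of 16 alternatives, the exception being without HMGB2OE replicate 3 (adjusted p = 0.0634), and went past 1.5-fold in 4 of them.

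A neighbour 640 bp further towards CCND1, starting at 69588231, held 197, 228 and 245 normalized counts in empty vector and 227, 183 and 226 in HMGB2OE libraries. These groups overlapped, with a log2 fold change of -0.08. The log2 ratio of the first peak to the second was 0.71, 0.78 and 0.70 in empty vector libraries and 0.43, 0.50 and -0.22 in HMGB2OE libraries, a difference of -0.50 (exact two-sided permutation test, p = 0.1, the smallest 3 against 3 allows, and 0.2 adjusted over 2 pairs). The first peak was chosen for its fall in these same libraries, so the ratio and its test give no separate support for that fall. The central 300 bases of both, chr11:69587692-69587991 and chr11:69588332-69588631, plus strand, are shown because both hold AP-1 words although only the first passed the adjusted p.
CCND1 first peak: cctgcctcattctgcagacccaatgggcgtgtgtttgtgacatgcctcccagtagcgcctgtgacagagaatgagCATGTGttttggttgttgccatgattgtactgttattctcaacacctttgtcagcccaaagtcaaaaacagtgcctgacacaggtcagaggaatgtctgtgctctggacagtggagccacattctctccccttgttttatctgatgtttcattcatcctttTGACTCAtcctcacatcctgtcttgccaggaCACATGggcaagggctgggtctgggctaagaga
CCND1 second peak: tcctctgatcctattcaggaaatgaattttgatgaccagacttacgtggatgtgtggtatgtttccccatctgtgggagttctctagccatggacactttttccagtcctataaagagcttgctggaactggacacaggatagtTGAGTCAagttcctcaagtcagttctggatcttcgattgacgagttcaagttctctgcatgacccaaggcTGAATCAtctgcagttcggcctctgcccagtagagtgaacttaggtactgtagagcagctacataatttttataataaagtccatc

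Inside CCND1, the peak in an intron starting at 69644324, 3418 bp after the gene start, went the other way. The empty vector libraries held 136, 98.9 and 139 normalized counts and the HMGB2OE libraries 190, 132 and 239. The groups overlapped, since HMGB2OE replicate 2 lay below the empty vector replicates 1 and 3, and the log2 fold change was 0.58 (SE 0.175, adjusted p = 0.0405, edgeR). This is just under the 1.5-fold limit. The adjusted p was 0.229 without empty vector replicate 2, 0.254 without HMGB2OE replicate 3, 0.126 without HMGB2OE replicate 1, and 0.085 by DESeq2. The strongest promoter peak of CCND1, starting at 69638940, held 1005, 967 and 1013 normalized counts in empty vector and 845, 912 and 834 in HMGB2OE libraries, without overlap (log2 fold change -0.20, adjusted p = 0.141, edgeR). The peak at its transcription start held 771 to 819 and 753 to 800.

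CDK4, the kinase partner of cyclin D1, had 3 member peaks, all promoter peaks. The strongest, starting at 57752272 on chromosome 12, held 1444, 1490 and 1493 normalized counts in empty vector and 1370, 1324 and 1301 in HMGB2OE libraries, so the groups did not overlap (log2 fold change -0.15, SE 0.075, adjusted p = 0.256, edgeR). Its peak starting at 57754026 was also lower in every HMGB2OE library (log2 fold change -0.42, adjusted p = 0.145, edgeR). That peak lies nearer to a start of the neighbouring gene MARCHF9 (827 bp) than to that of CDK4 (1737 bp). The third, 102 bp from a MARCHF9 start, had a log2 fold change of 0.01.

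**Figure D3:**
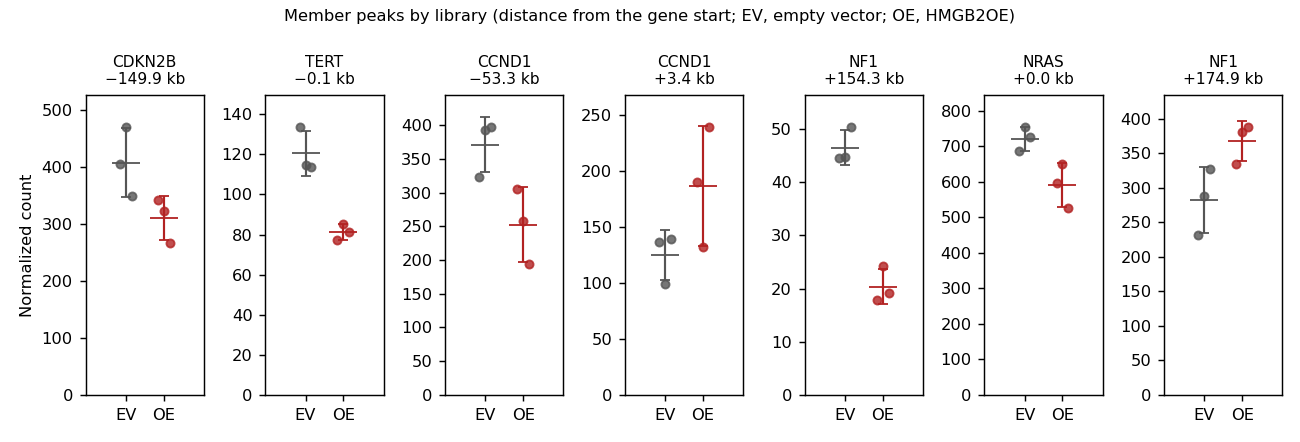
Normalized counts by library (3 empty vector, EV, and 3 HMGB2OE, OE) for the 5 member peaks with adjusted p under 0.05, the NRAS promoter peak and the NF1 intronic peak starting at 31269598, each on its own linear axis from 0 with mean and SD bars, titled with the distance from the gene start. OE lies below EV without overlap in 5 panels and above it without overlap in the last NF1 panel, and the groups overlap in the intronic CCND1 panel.

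CDKN2A and CDKN2B, the p16, ARF and p15 genes on chromosome 9, differed from the other members in what was not in the peak table. CDKN2A had 1 peak, from 21974795 to 21975296, at the p16 start, and none at the ARF start, which lies 20256 bp from the centre of that peak. It held 311, 343 and 316 normalized counts in empty vector and 338, 382 and 316 in HMGB2OE libraries, with overlap (log2 fold change 0.09, SE 0.110, adjusted p = 0.678, edgeR). CDKN2B had no peak in its body or at its promoter. A promoter peak was missing for 3886 of 20046 protein-coding genes (19.4%), whether or not their body held a peak. The nearest peaks left a gap of 136551 bp around CDKN2B, and only 1.31% of 152155 gaps between neighbouring peaks in the table were as long, against a median of 7793 bp. Peaks were called against a melanocyte dataset as control, so a missing peak does not show closed chromatin.

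The upstream bases of 3 starts at this locus are printed because they differ in whether a peak covers them. Those of the ARF start (chr9:21995325-21995574) and of CDKN2B (chr9:22009306-22009555) lie in no peak, and those of the p16 start (chr9:21974858-21975107) lie wholly in one, all on the minus strand of GRCh38.p14 as given by RefSeq. At 66.8% G and C for both CDKN2A starts and 66.4% for CDKN2B, they hardly differ in base composition.
CDKN2A ARF upstream: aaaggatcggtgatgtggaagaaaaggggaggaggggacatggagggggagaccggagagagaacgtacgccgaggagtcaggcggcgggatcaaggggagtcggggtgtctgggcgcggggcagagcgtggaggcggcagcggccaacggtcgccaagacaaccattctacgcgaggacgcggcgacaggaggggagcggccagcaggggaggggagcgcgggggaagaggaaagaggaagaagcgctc
CDKN2A p16 upstream: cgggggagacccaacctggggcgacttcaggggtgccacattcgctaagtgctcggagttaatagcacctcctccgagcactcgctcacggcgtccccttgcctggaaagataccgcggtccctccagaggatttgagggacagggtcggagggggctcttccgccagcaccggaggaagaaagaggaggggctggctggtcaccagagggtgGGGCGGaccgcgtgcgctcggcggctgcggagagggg
CDKN2B upstream: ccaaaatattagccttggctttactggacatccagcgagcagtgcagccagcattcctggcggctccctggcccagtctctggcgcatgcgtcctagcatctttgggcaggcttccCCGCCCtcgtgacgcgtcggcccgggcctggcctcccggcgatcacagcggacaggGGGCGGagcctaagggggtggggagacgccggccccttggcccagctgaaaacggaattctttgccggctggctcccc

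All 20 peaks assigned to CDKN2B lay 102793 to 207652 bp before its start, beyond the gap. Their levels in empty vector cells ran from 29.0 to 1449 normalized counts, the strongest being the peak starting at 22147998. Of the 20, 16 (80%) were below 0, with a median log2 fold change of -0.19, and the median of other peaks within 1 Mb of the gene was -0.084, beside 0.010 over the rest of chromosome 9. The peak starting at 22158942, which was chosen after its values were seen, held 404, 469 and 349 normalized counts in empty vector and 341, 322 and 267 in HMGB2OE libraries. No libraries overlapped, with a log2 fold change of -0.39 (SE 0.119, adjusted p = 0.041, edgeR). The adjusted p rose past 0.05 when any 1 library other than empty vector replicate 3 was left out, from 0.0603 without HMGB2OE replicate 1 to 0.27 without empty vector replicate 2. It was 0.0752 when libraries were centred within 10 Mb windows (log2 fold change -0.34) and 0.072 by DESeq2. Its neighbour 523 bp closer to CDKN2B, starting at 22158419, held 158, 191 and 117 and then 132, 144 and 139, and the difference between the 2 log2 ratios was -0.25 (exact two-sided permutation test, p = 0.3). This ratio also rests on the values by which the first peak was chosen.

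**Figure D4:**
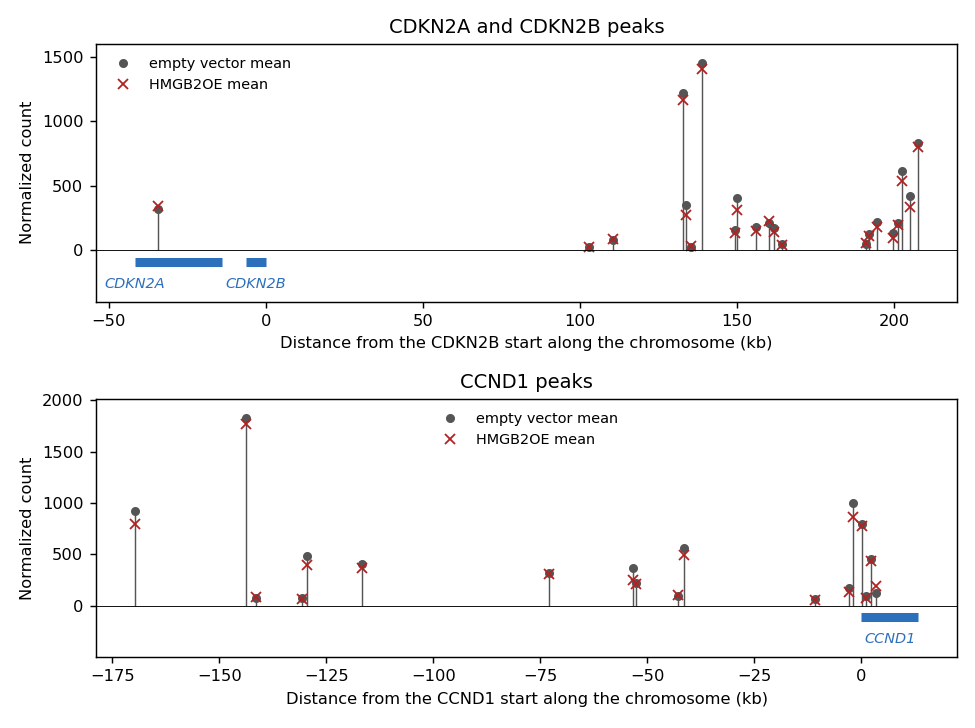
Mean normalized counts of member peaks in empty vector (grey) and HMGB2OE (red crosses) libraries against the distance along the chromosome from the CDKN2B start (top; the gene is transcribed to the left) and from the CCND1 start (bottom; transcribed to the right), with gene bodies as blue bars. CDKN2B has its peaks more than 100 kb upstream and none nearby, while CCND1 has strong peaks at its promoter and 143760 bp before it.

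BRAF, the kinase most often mutated in melanoma, had 6 member peaks and none with non-overlapping groups. Its strongest promoter peak, starting at 140924165 on chromosome 7, held 642, 654 and 582 normalized counts in empty vector and 499, 621 and 514 in HMGB2OE libraries (log2 fold change -0.20, SE 0.098, adjusted p = 0.244, edgeR). Its other 5 peaks were above 0, up to 0.35 for the weak peak starting at 140726240, with 27.9 ± 8.28 normalized counts in empty vector and 36.6 ± 14.4 in HMGB2OE libraries (SD, n = 3) and an adjusted p of 0.614 by edgeR.

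NF1 had 19 member peaks, the exon peak above among them, with 11 below 0 and 8 above. Its promoter peak starting at 31094552 held 844, 771 and 723 normalized counts in empty vector and 631, 701 and 626 in HMGB2OE libraries, without overlap (log2 fold change -0.25, SE 0.090, adjusted p = 0.0894, edgeR). The 2 members whose HMGB2OE libraries all lay above the empty vector libraries were both in NF1, and they are named here because of those values. The intronic peak starting at 31269598 held 232, 287 and 326 and then 335, 381 and 387 (log2 fold change 0.38, SE 0.119, adjusted p = 0.0547, edgeR). The other, starting at 31340171, is a promoter peak by the 3 kb rule, 2587 bp from a transcript start inside NF1. It held 110, 111 and 114 and then 141, 125 and 124 (0.22, adjusted p = 0.423, edgeR). The genes OMG, EVI2A and EVI2B are nested in NF1, so peaks there may belong to them.

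By role, the 26 peaks of BRAF, NRAS and NF1 had a median log2 fold change of 0.00012 and 13 were below 0. The 21 peaks of CCND1 and CDK4 had a median of -0.15, with 17 below 0, and the 21 of CDKN2A and CDKN2B a median of -0.19, with 16 below 0. Those 16 were all CDKN2B peaks, which lie 102793 bp or more before its start, and the 1 CDKN2A peak was above 0 (0.09). All HMGB2OE libraries lay below the empty vector libraries in 6 peaks of BRAF, NRAS and NF1 (23.1%), 6 of CCND1 and CDK4 (28.6%), 4 of CDKN2A and CDKN2B (19%) and 1 of 3 of TERT, beside 12.5% of all peaks. They lay above them in 2 peaks of the first role (7.69%) and 0 of the others, beside 12.6% of all peaks. None of these medians was tested.

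Counts summed over all peaks of a gene passed the adjusted p for 0 of the 8 genes by edgeR, beside 5.74% higher and 3.37% lower of 18297 genes tested. At an unadjusted p under 0.05 there were 4 of 8, beside 25.2% of all genes tested. DESeq2 gave 1 gene past its adjusted p, NRAS (0.0485), beside 9.75% of all genes it tested, and also 4 of 8 at an unadjusted p under 0.05, beside 22.9%. NRAS was also the nearest to the threshold by edgeR, with sums of 696, 731 and 718 in empty vector and 599, 658 and 536 in HMGB2OE libraries (log2 fold change -0.26, SE 0.081, adjusted p = 0.055). It passed without HMGB2OE replicate 2 (0.026), but leaving out any other library gave an adjusted p of 0.0757 to 0.21 by edgeR. CDK4 had sums of 1794, 1781 and 1792 and then 1673, 1649 and 1644, without overlap, with a log2 fold change of -0.11 and an adjusted p of 0.129. For the others the log2 fold change was -0.24 for TERT, -0.10 for CDKN2B, -0.09 for CCND1, -0.06 for NF1, 0.0015 for BRAF and 0.13 for CDKN2A, with adjusted p between 0.119 and 0.992.

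Words for known binding sites were counted in the reference sequence of the members. TGANTCA occurred in 31 of 71 (43.7%), beside 36.2% of all peaks, CATGTG in 32.4% beside 27.0% and CACGTG in 6 (8.45%) beside 6.84%. GGGCGG occurred in 13 of 16 promoter peaks (81.3%), beside 51.8% of all promoter peaks, and CCGGAAG in 4 (25%) beside 11.3%. The member promoter peaks had a median of 66.3% G and C, beside 58.8% for all promoter peaks, and the part of base composition in these shares was not tested.

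Genes of related pathways were examined from lists chosen with earlier results known. In the RAS to ERK list, 1 of 123 peaks was called higher (0.813%) and 2 lower (1.63%), near the 1.87% and 1.44% of all peaks. DESeq2 called 0 and 2. One of the lower peaks was assigned to RASA1, a RAS-inactivating protein like NF1 (log2 fold change -0.72, adjusted p = 0.00049, edgeR). The sum over all RASA1 peaks was lower too (-0.14, adjusted p = 0.0257). Of the 12 genes in the list, 1 sum was higher and 2 were lower, beside 5.74% and 3.37% of all genes.

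Among 10 genes of the cyclin D, CDK and RB list, 0 of 114 peaks were called in either direction by edgeR, beside 1.87% higher and 1.44% lower of all peaks, and DESeq2 also called 0. At an unadjusted p under 0.05 the list had 10 higher (8.77%) and 18 lower (15.8%), beside 10.7% and 10.2% of all peaks. In telomerase and shelterin genes, 2 of 50 (4%) were called higher, beside 1.87% of all peaks, and DESeq2 called 1. Both were assigned to POT1, which binds the telomere end (log2 fold changes 0.79 and 0.65, adjusted p = 0.0033 and 0.0417, edgeR). They start far apart, at 124959669 and 125639968 on chromosome 7, and assignment includes peaks between genes, so they need not act on POT1. Of 102 peaks at 9 of 10 other genes mutated in melanoma, 2 (1.96%) were called higher, a share near the 1.87% of all peaks, and DESeq2 called 1. Both were assigned by the same rule to the receptor kinase KIT and start at 54586254 and 54746156 on chromosome 4 (log2 fold changes 0.89 and 0.62, adjusted p = 4.6e-05 and 0.0257, edgeR). The sum of KIT was higher as well (0.27, adjusted p = 0.00036).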

How the data were processed

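The deposited table held raw read counts per peak and library: per the labels and the study's methods, the authors trimmed reads (Trim Galore 0.6.7, cutadapt 4.0), checked them with FastQC 0.12.1, mapped them to hg38 with Bowtie 2 and marked duplicates for removal using Picard. MACS2 then found peaks relative to published melanocyte data, and featureCounts gave the reads of each library in 1 merged atlas. Treatment of multiply aligned reads and of the Tn5 offset is not given in the sources used here. Peak starts are as deposited and may be offset by 1 base, since 15 peaks start at 0. The 6 libraries (3 empty vector, 3 HMGB2OE) were grouped by genotype label and held 26910189 to 45645294 counts in peaks. Member peaks held 6 to 2127 raw counts per library. Within groups, chi-square per degree of freedom was 2.5 to 4.66, more than counting error gives, so all 6 were kept as separate libraries.

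Counts were tested with edgeR 4.0.16 (R 4.3.3, TMM, filterByExpr, quasi-likelihood F test) on the whole table of 152800 peaks, with Benjamini-Hochberg adjustment over the 150117 tested. Called means adjusted p under 0.05 and at least 1.5-fold. Counts summed per gene were tested likewise. DESeq2 1.42.0 (Wald test) was an alternative; the 3 member peaks to which it gave no adjusted p were left as such. Named peaks are each gene's strongest promoter peak, called peaks and largest rise and fall, and any other peak in the text was picked with its values in view. The members and the gene lists were chosen with earlier results of these data known. Results for some genes of these lists are not reported here. On simulated counts with 200 peaks changed by 1.5 on the log2 scale, drawn from those with a mean of at least 20 counts and with a dispersion of 0.02, edgeR recovered 97.5% and DESeq2 93% for peaks, with 8 and 6 false calls over 150110 and 152800 peaks. For gene sums, edgeR recovered 100% of 200 over 18297 genes. Recovery meant an adjusted p under 0.05 in the planted direction, with no fold limit. False calls were counted only where the change was also at least 1.5-fold, so the 2 measures follow different rules. Smaller changes were not simulated, so these shares do not give the power at changes the size of those of most members. Shared sequence was searched with BLAST 2.17.0. Alternatives covered normalization, filters, GC content, replicate number, regional shifts, assignment and each library left out.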

Additional observations from a re-analysis of the deposited data

How the results depend on the processing

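The 1 member called lower and 0 called higher changed by at most a few peaks. The count called higher became 1 with DESeq2 size factors, library size only, no filter on low counts, GC offsets, replicate block with GC offsets, centring in 10 Mb windows, a lower fold limit or none, the peak being the intronic CCND1 peak starting at 69644324 at the 1.5-fold limit, and leaving out 1 library gave 0 to 1 (1 without empty vector replicate 3 or HMGB2OE replicate 2). The count called lower became 2 with a loess trend removed, GC offsets or replicate block with GC offsets, 4 at a lower fold limit or none, 0 with every peak given to the nearest start site, since the NF1 peak then belongs to another gene, and 0 to 2 with 1 library left out (2 when empty vector replicate 1 was dropped, 0 when empty vector replicate 2, empty vector replicate 3 or HMGB2OE replicate 3 was, and 1 without HMGB2OE replicate 1, then the CCND1 peak starting at 69587591 in place of the NF1 peak). Summed counts gave 1 gene, NRAS, by the DESeq2 Wald test and 0 to 1 with 1 library left out (1 without HMGB2OE replicate 2).

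Replicate numbers were not used as pairs in the main fit. Deviations of same-numbered libraries correlated at -0.088, 0.191 and 0.128, and those of differently numbered libraries at -0.27 to 0.158. These values do not settle whether the numbers pair the libraries. With the replicate block, 0 member peaks were called higher and 1 lower, and 1 gene sum (NRAS) passed. The log2 fold change turned negative for the CDK4 peak starting at 57754751 with the loess trend (-0.00067) and in some fits with 1 library left out, which gave -0.053 to 0.077. That of the summed BRAF count did so with library size only (-0.0082), DESeq2 (-0.00071), the gene body and 3 kb before the start only (-0.00037), the nearest start site (-0.035), and in some fits with 1 library left out, which gave -0.069 to 0.075. Both are near 0 throughout. The causes of these changes were not tested unless stated. CDKN2B has no peak within its body and 3 kb before its start, so that setting gave no sum for it.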
